A study of Mus musculus with 11 samples.

Results

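The genes described here are 10 transporters that move bile acids and other organic anions into and out of hepatocytes: Slc10a1, Slco1a1, Slco1a4 and Slco1b2 for uptake from blood, Abcb11, Abcb4 and Abcc2 for export across the canalicular membrane, and Abcc3, Abcc4 and Slc51b for export back across the basolateral membrane. They were taken by gene symbol, and all 10 of the 10 were among the 17038 genes tested, out of 55414 in the count table. Whole liver RNA was sequenced from 11 livers of male mice that were 8 weeks old when a diet period of 16 weeks began. All 3 groups had the Clec4f-DTR genotype, in which, as background, the promoter of Clec4f, a gene of liver-resident macrophages (Kupffer cells), drives a receptor for diphtheria toxin (DT). The chow group had 3 livers, and its titles name no injection. The saline group had 4 livers from mice on western diet plus alcohol that received repeated saline, and the DT group had 4 livers from mice on that same regimen that received repeated toxin. No group lacked the receptor or received toxin on chow, so loss of Clec4f-positive cells and other actions of the toxin cannot be told apart, and neither can diet and injection in comparisons with chow. RNA of whole tissue does not separate fewer cells of a type from less RNA per cell.

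Bile acids circulate between gut and liver. Hepatocytes take them up through the sodium-coupled carrier encoded by Slc10a1 and through sodium-independent carriers of the Slco family, and pump them into bile through the ATP-driven bile salt export pump encoded by Abcb11. Abcb4 moves phosphatidylcholine into bile, where it shields membranes from bile salts, and Abcc2 exports conjugates such as bilirubin glucuronides. Abcc3, Abcc4 and the heterodimer of Slc51a and Slc51b work on the blood side and are known as routes that drain bile acids and conjugates when bile flow is impaired. The receptor FXR, encoded by Nr1h4, senses bile acids and controls several of these genes.

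Each liver gave 43995217 to 58089531 counts, and values below are CPM (counts scaled to library size) after TMM scaling, a correction for differences in RNA composition. TMM factors were 1.23 to 1.30 in DT livers 1, 3 and 4 and 0.85 to 0.97 in the other 8. The words rose, fell and called are kept for genes that edgeR's quasi-likelihood test put below an adjusted p of 0.05 (Benjamini-Hochberg over all tested genes). Hepatocyte transcripts were abundant in all livers: 5 of the 6 marker symbols had a row and summed to between 58429 and 106722 CPM, with none at 0. Clec4f lay between 37.1 and 50.3 CPM in chow and saline livers and between 6.18 and 15.2 CPM in DT livers. DT liver 2, with the highest Clec4f value of its group, stood apart from DT livers 1, 3 and 4 for several transporters, so counts of called genes in DT against saline livers are given with and without it. It was singled out by these same values. Adjusted p from fits without it therefore describe the remaining livers and are not independent support.

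The levels of the 10 transporters, divided by the length of the longest annotated transcript, spanned a wide range in chow livers. Slc10a1 was highest at 350 ± 29.1 CPM per kb (SD, n = 3), followed by Slco1b2 at 266 ± 35.3, Abcb4 at 168 ± 17.9, Abcc3 at 125 ± 15.3, Abcc2 at 99.3 ± 7.69 and Abcb11 at 82.3 ± 9.75 CPM per kb. Slco1a1 and Slco1a4 came next at 38.6 ± 3.41 and 35.6 ± 7.83 CPM per kb and did not differ beyond their spread. Slc51b and Abcc4 were the lowest, at 1.27 ± 0.988 and 0.814 ± 0.166 CPM per kb, and did not differ beyond their spread either. In saline livers Slco1b2 (448 ± 12.1 CPM per kb, n = 4) lay above Slc10a1 (383 ± 52.7 CPM per kb, n = 4), and Slco1a4 (14.8 ± 4.59 CPM per kb) lay far below Slco1a1 (66.6 ± 13.5 CPM per kb).

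**Figure D1:**
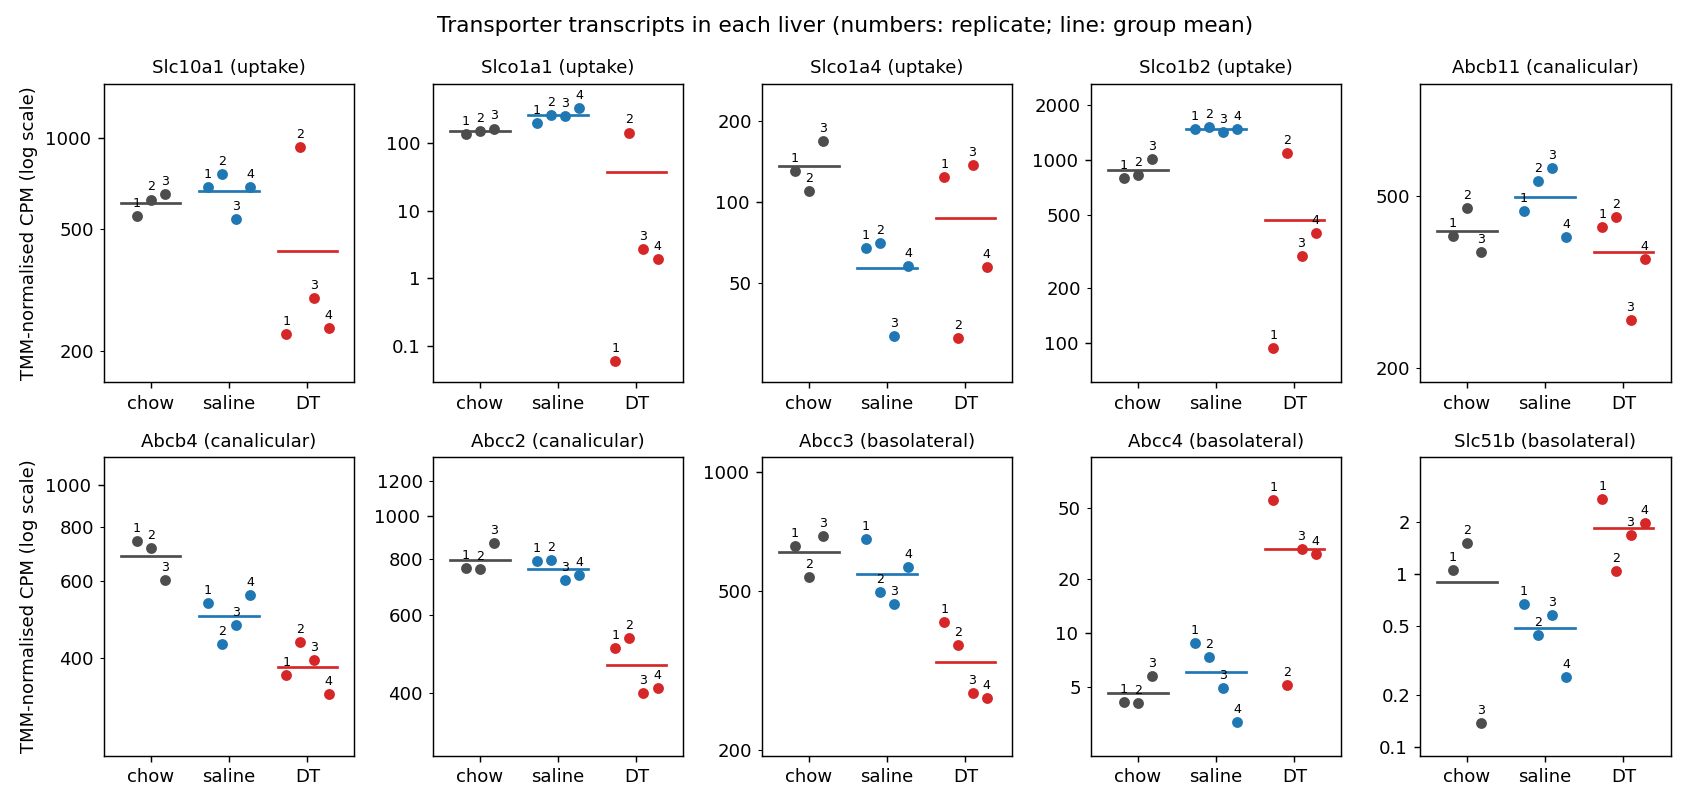
TMM-normalised CPM (log axes that differ between panels) of each transporter in chow, saline and DT livers, with the replicate number above each point and a line at the group mean. DT livers 1, 3 and 4 have Slco1a1 at 0.0597 to 2.71 CPM against 143 CPM in DT liver 2, and Abcc4 at 27.6 to 55.2 CPM against 5.14 CPM in DT liver 2.

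Saline livers were compared with chow livers, a contrast that takes the western diet with alcohol and the saline injections together. None of the 10 was called by edgeR. Slco1a4 and Abcb4 had the lowest values of p, with lower levels in all 4 saline livers than in all 3 chow livers. Slco1a1 and Slco1b2 were higher in all saline than in all chow livers, also without a call. Across all tested genes 5.58% were called in this comparison, 2.45% higher and 3.13% lower. At an unadjusted p under 0.05 there were 2 of the 10 transporters (Slco1a4 and Abcb4), a share near the 20.9% of all tested genes. DESeq2 called those 2 lower, and limma-voom called 0. Groups did not overlap for 2 transporters with saline above and 2 with saline below, against 14.8% and 15.6% of all tested genes (30.4% either way). The median log2 fold change (log2 FC) was 0.03 over the 10 and 0.00 over all genes.

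Slco1a4 encodes a sodium-independent carrier of bile acids, steroid conjugates and drugs. Chow livers 1 to 3 had 130, 110 and 169 CPM of Slco1a4. Saline livers 1 to 4 had 67.4, 70.2, 31.7 and 57.7 CPM, with the lowest value in liver 3. Its log2 FC was -1.26 (SE 0.43, adjusted p = 0.119). Abcb4 had 742, 716 and 604 CPM in the chow group against 536, 431, 475 and 559 CPM in the saline group, a log2 FC of -0.46 (SE 0.15, adjusted p = 0.101). The DT livers enter the spread used here, and both genes were called lower when DT liver 2 was left out (adjusted p = 0.0432 and 0.0398), in a fit that called 11.4% of all genes. A fit of chow and saline livers alone, which called 20.1% of genes, called 4 transporters: Slco1a4 and Abcb4 lower (adjusted p = 0.0291 and 0.0211) and Slco1a1 and Slco1b2 higher (log2 FC 0.80 and 0.76, adjusted p = 0.00743 and 0.00132). Slc10a1 (0.13), Abcb11 (0.26), Abcc2 (-0.07), Abcc3 (-0.18), Abcc4 (0.39) and Slc51b (-0.88) had these log2 FCs over all 3 groups and were called in neither fit. The sign for Abcc2 turned under total count scaling (0.06).

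Toxin was next compared with saline on the same regimen. Slco1b2, Abcc2 and Abcc3 fell and Abcc4 and Slc51b rose. Thus 3 of the 10 fell and 2 rose, against 7.62% and 14.3% of all tested genes (21.9% called either way). The remaining 5, Slc10a1, Slco1a1, Slco1a4, Abcb11 and Abcb4, were not called. When DT liver 2 was left out 9 were called, 7 lower and 2 higher, and these included the 5 called with it, which left Slco1a4 without a call. That fit called 40.3% of all genes. The median log2 FC was -0.54 over the 10 and 0.02 over all genes. Groups did not overlap for 1 transporter with DT above (Slc51b) and 4 with DT below (Slco1a1, Slco1b2, Abcc2 and Abcc3), against 9.33% and 9.97% of all genes (19.3% either way).

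**Figure D2:**
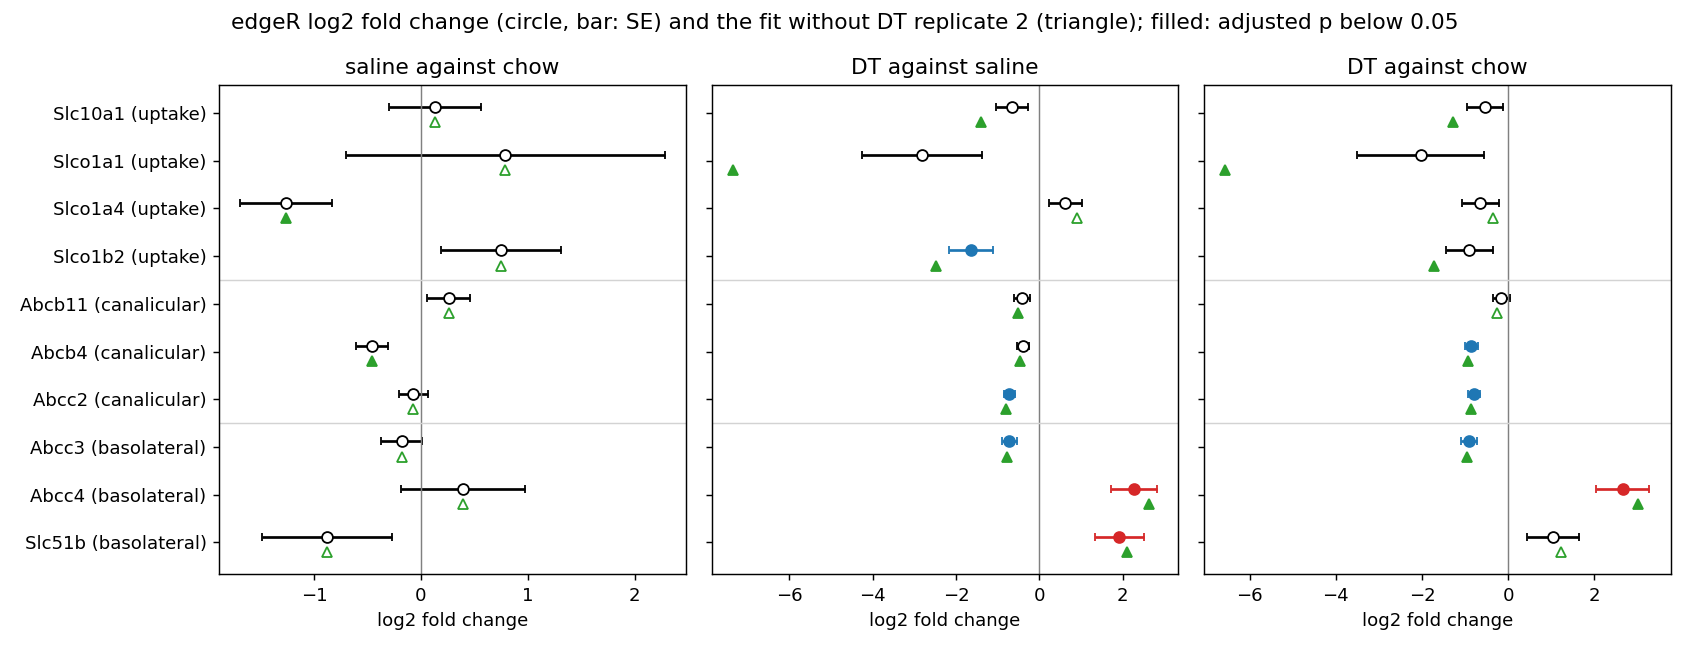
Log2 fold change of each transporter in the 3 comparisons (circles with SE bars from the fit over 11 livers, red called higher, blue called lower, open not called; green triangles from the fit without DT liver 2, filled when called). In DT against saline livers Slco1a1 moves from -2.82 to -7.36 and Slc10a1 from -0.66 to -1.40 when DT liver 2 is left out.

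Among the uptake carriers, Slco1a1, which encodes a carrier of bile acids and steroid conjugates, showed the widest spread. Counts of Slco1a1 were 9774, 12832, 13768 and 15396 in saline livers 1 to 4 and 4, 6873, 192 and 147 in DT livers 1 to 4. In CPM these were 199, 261, 252 and 328 in saline livers and 0.0597, 143, 2.71 and 1.95 in DT livers, with chow livers at 138, 150 and 164. All 4 DT livers lay below the saline livers, and DT liver 2 alone lay within the chow range. The value of DT liver 1 rests on 4 counts, next to a floor of 3 counts (0.0448 CPM), and that of DT livers 3 and 4 was 95.9-fold and 133-fold below the saline mean. The log2 FC over all 4 DT livers was -2.82 (SE 1.45, adjusted p = 0.18). Slco1a1 was called lower without DT liver 2 (log2 FC -7.36, adjusted p = 0.000248) and by limma-voom with all livers (-6.88, adjusted p = 0.0132). The edgeR value follows group means, whereas limma-voom averages log2 levels of single livers, so -2.82 and -6.88 are unlike measures.

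Slco1b2 encodes the main sodium-independent carrier of unconjugated bile acids in mouse liver. It was at 1489, 1527, 1429 and 1481 CPM in saline livers, a narrow range, and at 93.8, 1094, 300 and 401 CPM in DT livers. Every DT liver was below every saline liver, with DT liver 1 the lowest and DT liver 2 above the chow range of 797 to 1015 CPM. The log2 FC of Slco1b2 was -1.65 (SE 0.53, adjusted p = 0.044). The call ended in 9 of the 11 refits that each left out 1 liver (highest adjusted p = 0.118, without DT liver 3), with no filter on low counts and in a fit of DT and saline livers alone (adjusted p = 0.131 and 0.0808). Leaving out DT liver 2 gave a log2 FC of -2.48 (adjusted p = 0.00114).

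Slc10a1, the sodium-coupled carrier of conjugated bile acids, was at 689, 759, 540 and 689 CPM in saline livers. In DT livers 1, 3 and 4 it was at 226, 298 and 238 CPM, below all saline and chow livers, while DT liver 2 was at 935 CPM, above all of them. The log2 FC was -0.66 (SE 0.39, adjusted p = 0.243), and -1.40 without DT liver 2 (adjusted p = 4.73e-05). Slco1a4 went the other way in DT livers 1 and 3, at 124 and 137 CPM, within the chow range and above the saline livers. DT livers 2 and 4 were at 31.1 and 57.4 CPM, and the log2 FC of 0.62 (SE 0.40) was not called with or without DT liver 2 (adjusted p = 0.283 and 0.059).

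The ratio of 2 transporters within a liver does not depend on scaling between libraries. Slco1a1 counts were 0.975 to 1.36 times those of Slco1a4 in chow livers and 2.95 to 7.95 times in saline livers. In DT liver 2 the ratio was 4.60, within the saline range, and in DT livers 1, 3 and 4 it was 0.000542, 0.0199 and 0.0341. The 2 transcripts are close in length (3904 and 3823 bases) and lie in a cluster of related Slco1a genes on chromosome 6. Of the 50-base windows of the Slco1a1 transcript 2.26% were found in other genes, 3 of them Slco1a relatives and 2 predicted genes, and 2.73% for Slco1a4. Hepatocyte markers were at 72412 to 91129 CPM in sum in saline livers and 76072, 80298, 60032 and 58429 CPM in DT livers 1 to 4, with DT livers 3 and 4 below the saline range. By edgeR 0 of 5 were called in DT against saline livers, and 0 had an unadjusted p under 0.05, with log2 FCs from -0.20 (Alb) to -0.73 (Serpina1c, adjusted p = 0.191). Under total count scaling Alb, Apoa1 and Fgb were at 0.12, 0.02 and 0.06, and Ttr and Serpina1c at -0.25 and -0.50. After GC correction all 5 were negative, from -0.26 (Fgb) to -0.98 (Serpina1c), and Apoa1 was called lower (-0.76, adjusted p = 0.0448). That correction moved the median log2 FC of all genes to -0.19. Leaving out DT liver 2, 3 of 5 were called lower, Serpina1c at -1.46, Ttr at -0.84 and Fgb at -0.43 (adjusted p = 1.89e-05, 0.00392 and 0.0267), in a fit where Slc10a1 was at -1.40. The part of the hepatocyte markers in the results for the uptake carriers was not tested.

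The promoter windows of Slco1b2, Abcb11 and Slc51b are printed because each held a near match to the inverted repeat that FXR binds. Slco1b2 fell, Slc51b rose and Abcb11 was not called in DT against saline livers. RefSeq windows on GRCm38.p6, from 250 bases before to 50 after the start site, were found for 9 of the 10 genes, all but Abcc3. They were searched on both strands for 3 motifs. The FXR motif was GGTCA, any base, then TGACC, with up to 2 mismatches. The antioxidant response element core was TGAC, any 3 bases, then GC, with none. The HNF1 motif was GTTAAT, any base, then ATTAAC, with up to 3 mismatches. A match with at most 1 mismatch to the FXR motif was present in 0.758% of all 32851 windows, and matches to the 3 motifs as searched were present in 10.7%, 12.4% and 8.33%. Capitals mark the matches and the strand of each gene is read 5′ to 3′.
Slco1b2, chr6:141629268-141629567, plus strand: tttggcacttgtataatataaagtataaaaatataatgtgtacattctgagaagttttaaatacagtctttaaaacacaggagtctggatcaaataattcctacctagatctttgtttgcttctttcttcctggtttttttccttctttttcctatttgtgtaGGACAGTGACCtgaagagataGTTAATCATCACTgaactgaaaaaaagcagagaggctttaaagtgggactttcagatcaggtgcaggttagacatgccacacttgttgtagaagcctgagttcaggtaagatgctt
Abcb11, chr2:69342567-69342866, minus strand: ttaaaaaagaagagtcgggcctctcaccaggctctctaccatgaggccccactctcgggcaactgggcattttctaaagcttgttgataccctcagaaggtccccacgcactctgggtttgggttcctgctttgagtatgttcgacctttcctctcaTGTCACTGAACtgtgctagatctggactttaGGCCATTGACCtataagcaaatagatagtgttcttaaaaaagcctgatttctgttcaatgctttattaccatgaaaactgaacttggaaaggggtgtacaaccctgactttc
Slc51b, chr9:65422724-65423023, minus strand: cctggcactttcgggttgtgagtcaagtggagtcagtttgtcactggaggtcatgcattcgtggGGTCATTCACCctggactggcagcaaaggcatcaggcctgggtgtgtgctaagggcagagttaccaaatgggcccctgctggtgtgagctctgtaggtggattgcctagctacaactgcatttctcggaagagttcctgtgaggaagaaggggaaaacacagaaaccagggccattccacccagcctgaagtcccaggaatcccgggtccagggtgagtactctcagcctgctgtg

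In Slco1b2 the FXR-like match GGACAGTGACC began 87 bases before the start site and an HNF1-like match with 3 mismatches began 66 bases before it. Abcb11 held GGCCATTGACC (1 mismatch) 62 bases before the start site and TGTCACTGAAC (2 mismatches) 93 bases before it. Slc51b held GGTCATTCACC (1 mismatch) 186 bases before the start site. Antioxidant response element cores were found in windows of Abcc2 (TGACATAGC, 98 bases before the start site) and Abcc4 (GCGGGGTCA on the other strand, 25 bases before, and TGACTCTGC 23 bases before a second start site). Abcc2 also held an HNF1-like match with 2 mismatches, and Slc10a1 and Slco1a1 held such matches with 3. A match of letters describes the window and shows no binding.

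Of the canalicular pumps, Abcc2, the exporter of conjugated organic anions, fell. It was at 793, 795, 719 and 738 CPM in saline livers and 504, 531, 401 and 410 CPM in DT livers, with every DT liver, liver 2 included, below every saline and chow liver. The log2 FC was -0.72 (SE 0.13, adjusted p = 0.00727), and the call held in all 11 refits without 1 liver and under all alternatives tried. Under total count scaling, which moved the median log2 FC of all genes from 0.02 to 0.36, Abcc2 was at -0.40 (adjusted p = 0.0132). Abcb4, the phospholipid exporter, was at 364, 435, 396 and 330 CPM in DT livers against 431 to 559 CPM in saline livers, and DT liver 2 overlapped them (log2 FC -0.39, SE 0.14, adjusted p = 0.0619). Of its 50-base windows 3.42% were shared with Abcb1a and Abcb1b.

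Abcb11, the bile salt export pump, was at 460, 540, 580 and 402 CPM in saline and 422, 446, 258 and 357 CPM in DT livers, so that the groups overlapped. Its log2 FC of -0.42 (SE 0.19, adjusted p = 0.122) was not called. Abcb4 and Abcb11 were both called lower without DT liver 2 (log2 FC -0.46 and -0.52, adjusted p = 0.0142 and 0.0385), a much smaller size than the -1.40 to -7.36 of the 3 called uptake carriers in that fit. The test did not compare sizes between genes. Counts of Slc10a1 relative to Abcb11 were 1.34 to 1.77 in chow and 0.931 to 1.71 in saline livers. In DT livers 1 and 4 they were 0.534 and 0.667, below all of these, in DT liver 3 1.15 and in DT liver 2 2.10, above all of these.

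**Figure D3:**
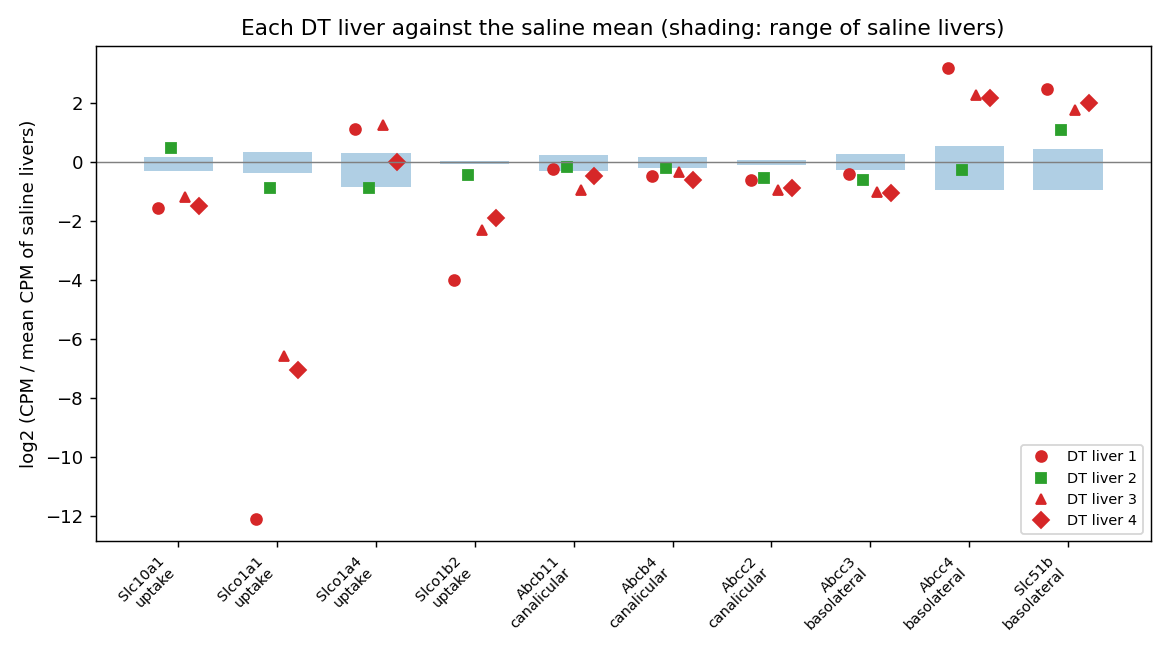
Log2 ratio of each DT liver (markers) to the mean CPM of the saline livers for each transporter, with shading over the range of the saline livers. Slco1a1 reaches -12.09, -6.58 and -7.06 in DT livers 1, 3 and 4 and -0.86 in DT liver 2 (green), while Abcc2 and Abcc3 lie below the shading in all 4.

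The basolateral exporters split. Abcc3, which exports glucuronides and bile acids to blood, fell, and Abcc4, which exports bile acids together with glutathione as well as nucleotides and other anions, rose. Abcc3 was at 678, 497, 466 and 576 CPM in saline and 418, 367, 277 and 270 CPM in DT livers, with no overlap (log2 FC -0.73, SE 0.18, adjusted p = 0.0171). The Abcc3 call ended without DT liver 3 or 4 (adjusted p = 0.0585 and 0.0578) and under total count scaling (-0.41, adjusted p = 0.0714). Abcc4 was at 8.86, 7.38, 4.94 and 3.19 CPM in saline livers. In DT livers 1, 3 and 4 it was at 55.2, 29.4 and 27.6 CPM, above every other liver, while DT liver 2 was at 5.14 CPM, within the saline range. The log2 FC of Abcc4 was 2.27 (SE 0.55, adjusted p = 0.0159) and ended as a call by limma-voom, with no low-count filter and without saline liver 4 (adjusted p = 0.0681, 0.0583 and 0.0502). Counts of Abcc4 relative to Abcc3 were 0.00556 to 0.0149 in the 7 chow and saline livers, 0.0140 in DT liver 2 and 0.102 to 0.132 in DT livers 1, 3 and 4.

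Slc51b encodes the beta subunit of the organic solute transporter, whose alpha subunit is encoded by Slc51a. It was low throughout, with 33, 22, 32 and 12 counts in saline and 183, 50, 119 and 149 counts in DT livers. This gave 0.672, 0.447, 0.585 and 0.256 CPM in saline and 2.73, 1.04, 1.68 and 1.97 CPM in DT livers, with every DT liver above every saline liver. The log2 FC was 1.92 (SE 0.58, adjusted p = 0.0356), and 3 of the 11 refits that left out a liver called it (highest adjusted p = 0.0963, without saline liver 4). With the replicate number as a block the adjusted p was 0.0615. Slc51a had 0 to 5 counts in each of the 11 livers and was not tested. An exon of Slc51b overlaps Rasl12 on the opposite strand, and Rasl12 had 63, 6, 40 and 23 counts in DT livers against 0 to 7 in chow and saline livers. Without a stated strand setting these reads cannot be told apart.

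Cholangiocyte markers moved with the rise of Abcc4 and Slc51b. All 8 of the 8 markers, among them Krt19, Krt7, Sox9, Epcam, Cftr, Muc1 and Spp1, rose in DT against saline livers (median log2 FC 3.74), and 8 of 8 without DT liver 2. Cftr kept its call in 5 of 11 refits without 1 liver, and 7 of the 8 were called after GC correction. Their summed level was 37.1 to 58.2 CPM in chow, 37.1 to 63.2 CPM in saline and 392, 49.3, 255 and 444 CPM in DT livers 1 to 4, with 2 markers at 0 in chow liver 3 and 1 each in saline liver 1 and DT liver 2. Their part in the transporter results was not tested. In DT liver 2, where the summed markers lay within the saline range, Slc51b was above the saline livers and Abcc4 was not. Kupffer cell markers fell for 6 of 6, from 265 to 370 CPM in sum in saline to 111 to 184 CPM in DT livers, DT liver 2 being the highest of these, and 1 of them was at 0 in DT liver 1. All 6 were also called lower without DT liver 2, while Cd5l kept its call in 6 of 11 refits (highest adjusted p = 0.0875, without DT liver 4) and lost it under total count scaling (adjusted p = 0.153). Endothelial markers fell for 2 of 5 (sums of 249 to 265 CPM in saline and 184 to 217 CPM with toxin), and 3 of 5 were called lower without DT liver 2. Of the 2, Stab2 kept its call in 2 of 11 refits (highest adjusted p = 0.124, without DT liver 3), and 0 of 5 were called under total count scaling. Stellate cell markers rose for 3 of 5 (sums of 79.4 to 137 CPM in saline and 95.5 to 206 CPM with toxin), and for the same number without DT liver 2. None of the endothelial or stellate markers was at 0 in any liver. Of all tested genes 14.3% rose and 7.62% fell in DT against saline livers, and 40.3% were called without DT liver 2.

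DT against chow livers shares the DT livers with the comparison above, so each value is its own and the pair is not independent evidence. Abcb4, Abcc2 and Abcc3 were lower and Abcc4 was higher than on chow. These were 3 lower and 1 higher of 10, where 8.16% and 14.8% of all tested genes were called (23.0% either way). The log2 FC was -0.85 for Abcb4 (SE 0.15, adjusted p = 0.0049), -0.79 for Abcc2 (SE 0.14, adjusted p = 0.00523), -0.91 for Abcc3 (SE 0.19, adjusted p = 0.00865) and 2.66 for Abcc4 (SE 0.62, adjusted p = 0.0128). All 4 DT livers lay below all 3 chow livers for Abcb4, Abcc2 and Abcc3, which is 3 of the 10 transporters against 14.4% of all genes (29.2% either way), and no transporter had all DT above all chow livers (14.8%). The Abcc3 call ended under total count scaling (adjusted p = 0.053), and the Abcc4 call ended by limma-voom, with no filter and without chow liver 1 or 2 (adjusted p = 0.0833, 0.0506, 0.0566 and 0.055). The fit without DT liver 2, which called 40.3% of all genes, called 7 transporters, the same 4 plus Slc10a1 (-1.27), Slco1a1 (-6.57) and Slco1b2 (-1.73), all 3 lower (adjusted p = 0.000109, 0.000378 and 0.0075). Abcb11 was at -0.16 (adjusted p = 0.593) and turned sign under total count scaling (0.29) and without DT liver 3 (0.01). Slc51b was at 1.04 (adjusted p = 0.236), with chow livers spread from 0.138 to 1.51 CPM.

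Other transporters of bile acids, sterols and organic ions were taken from a list of 18, of which 17 were tested. In saline against chow livers 3 rose and 1 fell. The sterol half-transporters Abcg5 and Abcg8, which pump cholesterol into bile, rose by log2 FC 2.23 and 1.60 (adjusted p = 0.000443 and 0.0048), and Atp8b1, the aminophospholipid flippase of the canaliculus, rose by 0.75 (adjusted p = 0.00555). The prostaglandin carrier gene Slco2a1 fell by 1.59 (adjusted p = 0.00111). In DT against saline livers 1 rose and 5 fell. Abcc5 rose by 1.77 (adjusted p = 0.0088), while Slc10a5, a relative of Slc10a1, fell by 0.86 (adjusted p = 0.00285). Groups overlapped for Abcc5, with a lowest DT value of 5.31 CPM against saline values up to 5.62 CPM. Abcg2, Abcg5 and Abcg8 fell by 0.86, 0.68 and 0.91 (adjusted p = 0.013, 0.0268 and 0.0157). The call of Abcg5 ended without DT liver 3 and under total count scaling (adjusted p = 0.0832 and 0.0882), the former being kept in 7 of 11 refits, that of Abcg8 without DT liver 3 (adjusted p = 0.051), and that of Abcg2 once GC content was corrected for (adjusted p = 0.124). The fit that left out DT liver 2 had 13 of 17 called, 4 higher and 9 lower, and 10 rather than 4 in saline against chow. That fit called 40.3% and 11.4% of all genes in these comparisons, the former also being the background of the counts without DT liver 2 in the lists that follow. With all livers the background for this list and those that follow was 2.45% higher and 3.13% lower in saline against chow livers. In DT against saline livers it was 14.3% higher and 7.62% lower.

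**Figure D4:**
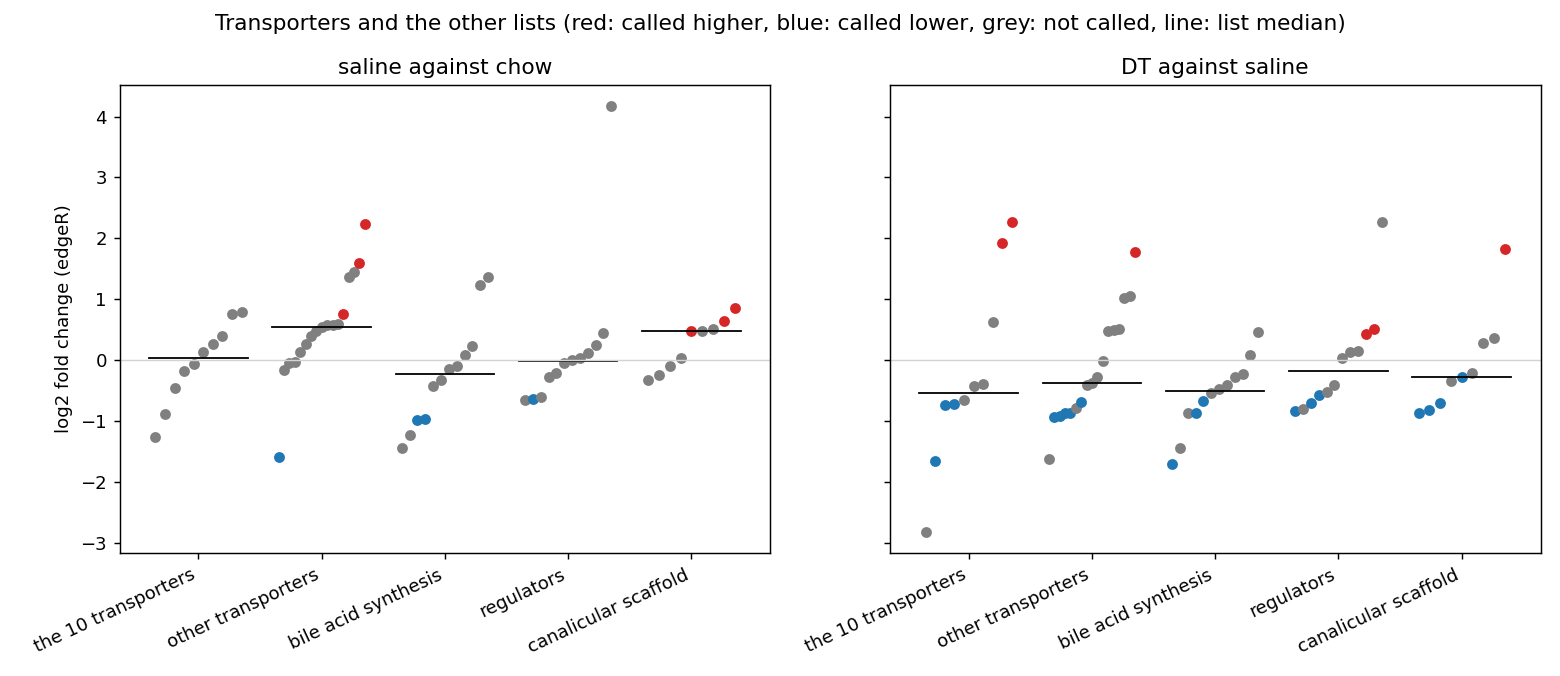
Log2 fold change of each tested gene of the 10 transporters and of 4 related lists in saline against chow and DT against saline livers (red called higher, blue called lower, grey not called, line at the list median). The median of the 10 transporters is 0.03 on the left and -0.54 on the right.

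Of the 12 genes of bile acid synthesis and conjugation, 0 rose and 2 fell in saline against chow livers. Cyp27a1 and Hsd3b7, both steps of bile acid synthesis, fell by 0.99 and 0.97 (adjusted p = 0.0248 and 0.031), calls kept in 5 of 11 refits each (highest adjusted p = 0.0999 and 0.154, without chow liver 1) that ended after GC correction (adjusted p = 0.0757 and 0.071). In DT against saline livers 0 rose and 3 fell: Cyp7b1 of the alternative pathway by 1.70, Scp2 by 0.86 and the bile acyl-CoA synthetase gene Slc27a5 by 0.67 (adjusted p = 0.0266, 0.0157 and 0.0486). The call of Cyp7b1 was kept in 6 of 11 refits and that of Slc27a5 in 1 of 11 (highest adjusted p = 0.0789 without saline liver 4 and 0.135 without DT liver 3). For both genes the highest DT value (73.7 and 852 CPM) lay above the lowest saline value (71.4 and 779 CPM). Cyp7a1, the rate-limiting enzyme of the classical pathway, had a log2 FC of 1.23 in saline against chow and -1.45 in DT against saline livers, without a call in either (adjusted p = 0.243 and 0.0639). Cyp2c70, which makes muricholic acids in mice, was at 1.37 in saline against chow livers (adjusted p = 0.0623). The count in DT against saline livers was 7 of 12, all lower, in the fit that left out DT liver 2.

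Of the 13 regulator genes 12 were tested. In saline against chow livers 0 rose and 1 fell, the xenobiotic receptor gene Nr1i2 (PXR), by 0.63 (adjusted p = 0.0138). This was lost without chow liver 2 and after GC correction (adjusted p = 0.0645 and 0.0804). Hnf4a was at -0.66 without a call (adjusted p = 0.0654). In DT against saline livers 2 rose and 3 fell, where 14.3% and 7.62% of all tested genes did. Nr1h4 (FXR) fell by 0.84, its partner gene Rxra by 0.58 and Nr5a2, a driver of bile acid synthesis genes, by 0.70 (adjusted p = 0.018, 0.0218 and 0.00433). For Nr1h4 the groups overlapped, the highest DT value being 129 CPM against a saline range of 118 to 163 CPM. The FGF receptor gene Fgfr4 and Nr1i2 rose by 0.52 and 0.43 (adjusted p = 0.0103 and 0.0225). After GC correction, which moved the median log2 FC of all genes to -0.19, Fgfr4 was at -0.05 and Nr1i2 at 0.06, neither called. The calls of Nr1h4 and Nr1i2 were kept in 7 of 11 refits each (highest adjusted p = 0.0549 without DT liver 4 and 0.0652 without saline liver 1). That of Rxra was kept in 9 of 11 (0.0667 without saline liver 4) and ended under total count scaling (adjusted p = 0.116). Nr0b2, the FXR target that encodes SHP, was not called (log2 FC 0.13, adjusted p = 0.853), nor was Hnf4a (0.04, adjusted p = 0.888), and both were negative after GC correction (-0.39 and -0.32). Leaving out DT liver 2 gave 9 of 12 called, 3 higher and 6 lower.

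Of the 9 genes of the canalicular scaffold and its trafficking 3 rose in saline against chow livers, the motor gene Myo5b (0.48) and the PDZ adaptor genes Pdzk1 (0.64) and Slc9a3r1 (0.85), with adjusted p of 0.0258, 0.0353 and 0.0298. These calls were kept in 5, 4 and 6 of 11 refits (highest adjusted p = 0.121, 0.157 and 0.149, without chow liver 1) and ended after GC correction (adjusted p = 0.0624, 0.115 and 0.069). In DT against saline livers 1 rose and 4 fell, where 14.3% and 7.62% of all tested genes did. Rdx, which encodes radixin, the linker that holds Abcc2 at the canaliculus, fell by 0.82, and Pdzk1, Slc9a3r1 and Rab11a fell by 0.87, 0.71 and 0.27 (adjusted p = 0.00834, 0.00564, 0.0194 and 0.0473). Ezr, the related linker of bile duct and other epithelia, rose by 1.83 (adjusted p = 0.0132). Its lowest DT value, 4.66 CPM, lay within the saline range of 4.30 to 6.66 CPM. The Slc9a3r1 call was kept in 7 of 11 refits (0.0674 without DT liver 3) and ended under total count scaling (adjusted p = 0.0555). Rab11a kept its call in 1 of 11 and turned to 0.06 both under total count scaling and after GC correction. Leaving out DT liver 2 gave 7 of 9 called, 2 higher and 5 lower.

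The genes most like 3 of the transporters, by Pearson correlation of log2 CPM over the 11 livers among 9767 or 9768 other genes (mean log2 CPM 2 or more), are given as a description. Library batches are not given in the sources used here. By their Slco1a1 level the livers fall into DT livers 1, 3 and 4 against the rest, and the correlation for that gene rests on this split. The genes most like Slco1a1 were Sult2a8 (1.00), Il1rap (0.99) and Cyp2c67 (0.99). Sult2a8, a sulfotransferase gene of bile acids, ran from 489 to 707 CPM in saline and from 1.01 to 330 CPM in DT livers. For Abcb11 they were Dnajc4 (0.94), Pepd (0.94) and Cog6 (0.92), and for Slc51b Rnf166 (0.93), Map3k13 (0.92) and Lcn2 (0.92). Lcn2, an acute-phase gene, lay between 9.37 and 41.2 CPM in saline and between 75.4 and 234 CPM in DT livers, with chow livers from 11.8 to 97.7 CPM.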

How the data were processed

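Gene-level RNA counts from 11 whole livers were used as deposited by the authors, with no normalization. The submitters' processing notes name FastQC, STAR, featureCounts and GRCm39; versions, annotation, strand setting and handling of read mates are not given in the sources used here. The labels' extraction text describes sorted CD45-positive cells for single-cell work, while the sample labels name whole liver tissue. Of counts from 1 to 49, 74.7% to 80.7% were even, which counting both mates would give, so halved counts were tried. Replicates are numbered in the titles, and nothing states that each is a separate animal, so p-values measure the spread between these samples. Floors cover counting error only, while SD and SE values include the spread between livers.

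Groups came from the titles. Genes passed edgeR's filterByExpr, were TMM-scaled and were fitted with 1 mean per group over the 3 groups (R 4.3.3, edgeR 4.0.16, limma 3.58.1, robust quasi-likelihood, 8 residual degrees of freedom, two-sided, Benjamini-Hochberg over 17038 genes). The SE is the log2 FC divided by the root of the F statistic. Alternatives were RLE, total count and upper quartile scaling, DESeq2 1.42.0, limma-voom, no filter, at least 1 CPM in at least 3 libraries, fits of the compared groups alone, the replicate block, halved counts, GC correction (loess, span 0.3) and each library left out. Scaling and DT liver 2 refits of the other lists were added after the data were seen. Transcript lengths, GC content (99.7% of tested genes), shared windows and overlaps came from GENCODE M21 on GRCm38, matched by identifier or symbol, and promoters from RefSeq on GRCm38.p6.

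The 10 members and the gene lists were chosen with earlier results of these data known. Named genes are the members, up to 4 genes per list with the smallest p in DT against saline and in saline against chow, the 3 genes most like Slco1a1, Abcb11 and Slc51b, and Clec4f. Single values of 2 listed genes are not reported here. Rab11a and the genes not called in the text were named after their values were seen. On simulated counts with 200 altered genes the DT against saline test (16419 genes) recovered 58.0% at 2-fold and 88.0% at 4-fold, with 4 false calls. Recovery was 46.0% and 88.0% in saline against chow (16459 genes, 11 false calls) and 50.0% and 82.0% in DT against chow (16532 genes, 5 false calls). The simulation gave all unaltered genes a common mean over the groups and set no liver apart. In the data 21.9% of tested genes were called in DT against saline livers and DT liver 2 stood apart, so these rates need not hold there. No library was a copy of another: chi-square per degree of freedom between libraries of a group was at least 24.9.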

Additional observations from a re-analysis of the deposited data

Results flagged for a closer look

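Among the 20 sets of 4 livers examined (10 transporters in saline and in DT livers), 2 held a liver that stood apart from the other 3 by Dixon's test, where chance flags about 1 in 20. Both were DT liver 2. It had Slc10a1 at 935 CPM, against 226 to 298 CPM in DT livers 1, 3 and 4, and Slco1a1 at 143 CPM, against 0.0597 to 2.71 CPM.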

How the results depend on the processing

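Of 660 log2 fold changes of single transporters under alternatives, 607 kept their direction and side of the threshold, 19 gained a call, 31 lost it and 3 turned sign. Those 3 were not called in the fit over all livers: Abcc2 in saline against chow livers (0.06, total count scaling) and Abcb11 in DT against chow livers (0.29, total count scaling, and 0.01 without DT liver 3, where leaving out other livers gave down to -0.26). In saline against chow livers 0 transporters were called, against 2 by DESeq2, 4 in a fit of those groups alone and 0 to 2 with 1 library left out. In DT against saline livers 5 were called, against 3 with no filter and 2 to 9 with 1 library left out: 9 without DT liver 2, 2 without DT liver 3, DT liver 4 or saline liver 4, and 3 without saline livers 1, 2 or 3 or chow liver 1. In DT against chow livers 4 were called, and 3 to 7 with 1 library left out, 7 without DT liver 2. The cause was not tested.

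With the replicate block 0, 4 and 4 transporters were called in the 3 comparisons. The numbers gave little sign of pairing: over 10 same-numbered pairs the correlation of deviations ran from -0.16 to 0.18, with 2 above 0.1. With so few livers in a group this check cannot exclude pairing.

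Over all genes, the 950 calls of saline against chow were 1721 by DESeq2, 3105 with only the compared groups and 559 with the block. The 3734 of DT against saline were 5629 under total count scaling and 2303 with only the compared groups. The 3919 of DT against chow were 6536 under total count scaling, 5990 after GC correction, 2089 with only the compared groups and 2210 with the block. With 1 library left out the calls ran from 287 to 1924, from 1786 to 6824 and from 1786 to 6834, each highest without DT liver 2. Of DT against saline calls 65.2% were higher, against 92.1% under total count and 75.7% under upper quartile scaling and 34.7% after GC correction. For DT against chow these were 64.5%, 94.8%, 77.6% and 35.7%, and for saline against chow 43.9% and 67.0% under total count scaling. The medians of all genes moved to 0.13, 0.36 and 0.44 under total count scaling.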
